A study of Mus musculus with 2 samples.

Results

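The genes described here are 10 enzymes of mitochondrial fatty acid beta-oxidation, named by symbol: Acadvl, Acadl, Hadha, Hadhb, Acadm, Acaa2, Acads, Hadh, Eci1 and Decr1. The rule that lists them uses no measured value, although the list was drawn up with earlier results of these data known. They were looked up among 45706 listed gene IDs, and all 10 were found and measured. The RNA came from GFP-high intestinal stem cells of Lgr5-EGFP-IRES-creERT2 mice aged 4 months and was sequenced as 1 library per group. The fed group ate standard chow without restriction, and the other group was fasting. Both groups carried the reporter allele, which places a green fluorescent protein and a creERT2 recombinase under control of Lgr5, a gene of crypt-base stem cells. The labels give neither the duration of the fast nor the number of animals behind a library, so nothing below has a replicate check and no p-value can be given.

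Beta-oxidation shortens a fatty acyl-CoA by a pair of carbons per turn of a spiral with 4 steps. An acyl-CoA dehydrogenase introduces a double bond, a hydratase adds water, a hydroxyacyl-CoA dehydrogenase oxidises the product, and a thiolase splits off acetyl-CoA. Different enzymes serve chains of different length: a chain enters through the long-chain enzymes and is handed to medium-chain and then short-chain enzymes as it shrinks, while fatty acids with double bonds need auxiliary enzymes. In many tissues fasting is known to engage this pathway through the PPARs, nuclear receptors that bind fatty acids, and in intestinal stem cells fatty acid oxidation is known as a fuel pathway tied to diet.

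The fed library held 6985316 counts and the fasted library 5020056. Counts were divided by a size factor (1.19 for fed, 0.842 for fasted) to give normalised counts. Each ratio is fasted over fed on that scale, and its 95% interval covers counting error only, not variation between mice. Calls of higher or lower required a ratio of 2-fold or more and an interval that excluded 1. Measured genes were those with 1 or more counts per 1000000 on average and 20 or more counts in sum, 12026 in all. As a check of the label, the stem cell genes Lgr5 and Olfm4 were abundant in both libraries (3381 and 1709 counts for Lgr5, 100399 and 41452 for Olfm4).

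Transcripts of the listed long-chain enzymes were more abundant in the fasted library, and those of the listed short-chain enzymes differed by less than 2-fold. Of the 10 genes, 6 were called higher and 0 lower. Among all measured genes, 2.51% were called higher and 1.91% lower. The 6 were the 4 long-chain genes Acadvl, Acadl, Hadha and Hadhb, the thiolase gene Acaa2 and the reductase gene Decr1. The other 4, Acadm, Acads, Hadh and Eci1, had ratios between 1.36-fold and 1.63-fold. Every one of the 10 had an interval wholly above a ratio of 1, which 16.7% of measured genes had. The median log2 ratio of the 10 was 1.44 (2.71-fold), beside -0.02 for all measured genes. All 6 also had an interval bound of at least 2-fold (Decr1 only just, at 2.01-fold), as 0.856% of measured genes did. At 1.5-fold Acads joined them, making 7 (5.11% of measured genes were higher), at 3-fold there were 5 (1.03%), and at 4-fold there were 2, Acadl and Hadhb (0.549%). In sorted bulk RNA, a difference in the share of a cell type and a difference in RNA per cell cannot be told apart.

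**Figure D1:**
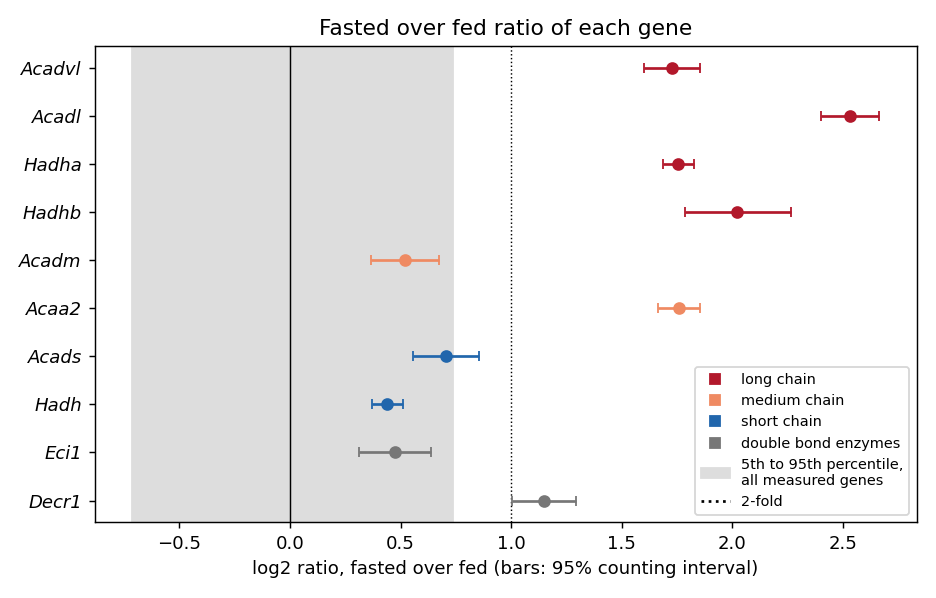
The log2 ratio of fasted over fed is plotted for each gene with its 95% counting interval, coloured by chain length, and the grey band spans the 5th to the 95th percentile of all 12026 measured genes (-0.71 to 0.74). The 4 long-chain genes and Acaa2 lie between 1.73 and 2.53, Decr1 lies at 1.15, and Acadm, Acads, Hadh and Eci1 lie inside the band.

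Among the 10 genes, the first step divided by chain length. Acadl, the long-chain acyl-CoA dehydrogenase (ENSMUSG00000026003, chromosome 1, 66830839 to 66863277, GRCm38), had 583 fed and 2386 fasted counts. These are 491 and 2835 normalised counts, a 5.78-fold ratio (5.28 to 6.34), the highest of the 10 and the 35th highest of 12026 measured genes. Acadvl, the very long-chain dehydrogenase of the inner mitochondrial membrane (ENSMUSG00000018574, chromosome 11, 70010183 to 70015411), had 715 and 1676 counts. Its normalised counts of 602 and 1992 gave a 3.31-fold ratio (3.03 to 3.62). The fasted library was thus the higher one for both long-chain dehydrogenases among the 10, with Acadl further apart than Acadvl. Acad9, a dehydrogenase of mitochondrial beta-oxidation outside the 10, was not called, with a log2 ratio of 0.10 (-0.10 to 0.30).

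Unlike Acadl and Acadvl, Acadm and Acads stayed within 2-fold. Acadm, the medium-chain dehydrogenase (ENSMUSG00000062908, chromosome 3, 153922357 to 153944632), had 690 fed and 701 fasted counts. After scaling these were 581 and 833 normalised counts, 1.43-fold (1.29 to 1.60). Acads, the short-chain dehydrogenase (ENSMUSG00000029545, chromosome 5, 115110299 to 115119346), had 695 and 803 counts, or 585 and 954 normalised counts. Its ratio was 1.63-fold (1.47 to 1.81). Both lay above their fed level in the fasted library, by less than the threshold and by less than either long-chain gene.

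Comparing genes within a library removes the scaling factor. The fasted over fed ratio of Acadl was 4.03 times that of Acadm (3.50 to 4.64), 3.54 times that of Acads (3.08 to 4.07) and 1.75 times that of Acadvl (1.54 to 1.98). Acadm and Acads were not separated by counting error, with a quotient of 0.879 and an interval from 0.758 to 1.02. Of the 8 pairs of genes compared in this way, this was the 1 whose interval held equality. These intervals too describe 2 libraries and not the spread between mice.

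Levels of different genes were compared only per length, as normalised counts per kb of exon. On that scale the 4 dehydrogenase genes summed to 875 (fed) and 2789 (fasted), a 3.19-fold ratio. In the fed library Acads supplied 29.5% of this sum, Acadl 28.0%, Acadvl 25.6% and Acadm 17.0%. In the fasted library Acadl supplied 50.7%, Acadvl 26.6%, Acads 15.1% and Acadm 7.63%. The makeup of the first step therefore moved from a spread over all 4 genes to one in which Acadl held the largest share. With the length of the principal transcript in place of all exons, Acadl went from 22.7% to 44.6%, and the fed order ran Acads, Acadm, Acadvl, Acadl.

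**Figure D2:**
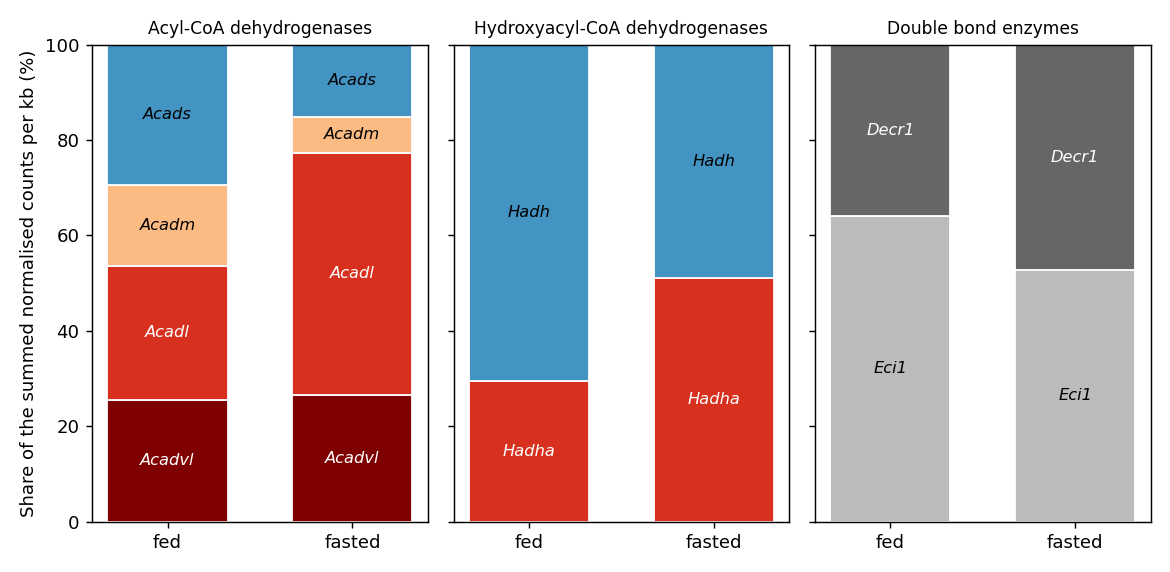
Stacked bars give the share of each gene in the summed normalised counts per kb of exon of its step, in percent, for the fed and the fasted library; the thiolases, whose shares stand in the text, are not drawn. Acadl widens from 28.0% to 50.7% among the acyl-CoA dehydrogenases, Hadha from 29.6% to 51.1% against Hadh, and Decr1 from 36.0% to 47.2% against Eci1.

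The middle steps divided in the same way. Long chains are processed by the mitochondrial trifunctional protein, whose alpha subunit, encoded by Hadha, carries the hydratase and the hydroxyacyl-CoA dehydrogenase. Hadha (ENSMUSG00000025745, chromosome 5, 30118304 to 30155162) had 2367 fed and 5661 fasted counts, or 1992 and 6727 normalised counts. The ratio was 3.38-fold (3.22 to 3.54). Hadh encodes the matrix hydroxyacyl-CoA dehydrogenase for medium and short chains (ENSMUSG00000027984, chromosome 3, 131233419 to 131272101). It had 3215 fed and 3091 fasted counts, or 2706 and 3673 normalised counts. Its 1.36-fold ratio (1.29 to 1.43) was the lowest of the 10. Set against each other, the ratio of Hadha was 2.49 times that of Hadh (2.32 to 2.67). Per kb of exon, Hadh made up 70.4% of the pair (fed) and 48.9% (fasted) with all exons, and 75.3% and 55.1% with principal transcript lengths. Echs1, the matrix hydratase for shorter chains, was not one of the 10, and had 1223 and 988 counts, a ratio of 1.14-fold (log2 ratio 0.19, 0.07 to 0.31).

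Thiolysis was the step at which a gene assigned to medium chains was also called higher. Hadhb, the thiolase-bearing beta subunit of the trifunctional protein (ENSMUSG00000059447, chromosome 5, 30155248 to 30184593), had 196 fed and 564 fasted counts. These are 165 and 670.2 normalised counts, a 4.06-fold ratio (3.45 to 4.81). Acaa2, a matrix thiolase that acts on medium chains (ENSMUSG00000036880, chromosome 18, 74779197 to 74806208), had 1298 and 3112 counts, or 1092 and 3698 normalised counts. Its 3.39-fold ratio (3.17 to 3.61) lay close to those of Acadvl and Hadha and above that of Acadm, the other medium-chain gene. The ratio of Hadhb was 1.20 times that of Acaa2 (1.01 to 1.44). The makeup of the pair differed little between the libraries. Per kb of exon Acaa2 supplied 96.6% (fed) and 96.0% (fasted), and Hadhb 3.35% and 4.00%. With principal transcript lengths, Acaa2 supplied 89.9% and 88.2%, and Hadhb 10.1% and 11.8%.

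Both subunits of the trifunctional protein were called higher, and their levels are not comparable here. Per kb of principal transcript, Hadha had 496 and Hadhb 80.5 normalised counts in the fed state, against 1675 and 327 after fasting, although the subunits are known to assemble in equal numbers. The Hadhb transcript has near-identical processed pseudogenes: the copy Gm13910 on chromosome 2 matched 1428 of its 2048 bases at 99.8% identity, and had 12 fed and 16 fasted counts. The labels do not say how reads that match several places were counted. The level of Hadhb is therefore uncertain, and the part of the copies in it was not tested. The quotient of the Hadha and Hadhb ratios was 0.831 (0.698 to 0.987).

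Acadvl has a related limit: 42.9% of its annotated exon length overlaps Dvl2 on the opposite strand. Dvl2 had 215 fed and 148 fasted counts, a log2 ratio of -0.04 (-0.35 to 0.27). The strand setting is not given, so the level of Acadvl is uncertain too. No other member shared more than 0.9% of its exon length with another gene, and no member but Hadhb had a copy at another locus of at least 95% identity over 100 bases or more.

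**Figure D3:**
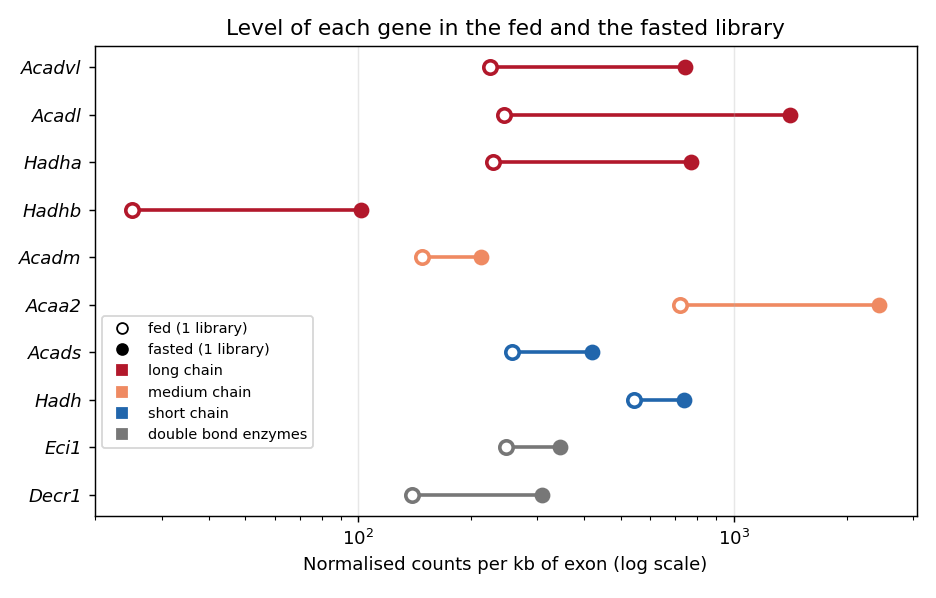
Each line joins the fed (open circle) and fasted (filled circle) level of a gene in normalised counts per kb of exon, on a log axis. Acaa2 is the highest in both libraries, from 721 to 2439, and Acadl passes Hadh on the way from 245 to 1414. Hadhb, whose level is uncertain, lies lowest in both, reaching 102 in the fasted library. With principal transcript lengths, not drawn, Acadl stayed below Hadh in the fasted library (1480 against 2053).

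Per kb of exon, the fed order from the top was Acaa2, Hadh, Acads, Eci1, Acadl, Hadha, Acadvl, Acadm, Decr1 and Hadhb. The 5 genes from Acads to Acadvl were close together there, between 258 and 224 normalised counts per kb. In the fasted library the order was Acaa2, Acadl, Hadha, Acadvl, Hadh, Acads, Eci1, Decr1, Acadm and Hadhb. Hadha, Acadvl and Hadh lay close together in it, at 771, 741 and 738. The places depend on the length used, and those of Hadhb and Acadvl also on the limits given above. With principal transcripts Hadh was the highest gene in the fed library, at 1512 against 721 for Acaa2. Under both lengths Acaa2 was the highest in the fasted library and Acadl moved up, from place 5 to 2 with all exons and from place 8 to 4 with principal transcripts.

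The auxiliary enzymes differed from each other. Eci1, an enoyl-CoA isomerase that moves double bonds left at odd positions (ENSMUSG00000024132, chromosome 17, 24426641 to 24439348), had 627 fed and 618 fasted counts. The normalised counts were 528 and 734, a ratio of 1.39-fold (1.24 to 1.56). Decr1, the dienoyl-CoA reductase needed for double bonds at even positions (ENSMUSG00000028223, chromosome 4, 15917240 to 15945507), had 642 and 1009 counts, or 540.3 and 1199 normalised counts. It was called higher at 2.22-fold, with an interval from 2.01 to 2.45. The ratio of Eci1 was 0.627 times that of Decr1 (0.539 to 0.730).

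By chain class, the median log2 ratio was 1.89 (3.70-fold) for the 4 long-chain genes, with 4 of 4 higher. It was 1.14 for the 2 medium-chain genes, with 1 of 2 higher, and 0.57 (1.49-fold) for the 2 short-chain genes, with 0 of 2 higher. The 2 auxiliary genes had 0.81, with 1 of 2 higher. The long-chain median lay 1.28 above that of the 4 medium-chain and short-chain genes, whose own median was 0.61. The medium-chain value joins Acadm at 0.52 and Acaa2 at 1.76, so no gene lies near it, and Acaa2 lies within the range of the long-chain genes (1.73 to 2.53). With classes of 2 to 4 genes and 1 library per condition, these medians are descriptions.

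The upstream sequences are shown for the gene with the highest ratio, for the divergent pair Hadha and Hadhb, and for the 2 genes with a motif match. RefSeq (GRCm38.p6) windows were matched for 8 of the 10 genes, all but Acaa2 and Decr1, and the 250 bases before each start were searched. The RefSeq starts of Hadha and Hadhb lie 273 bases apart on opposite strands of chromosome 5, and their windows share 228 bases. GENCODE extends Hadha further, over the first 160 bases of the Hadhb window, so only the 85 bases between the GENCODE genes are printed for the pair. Capitals mark AGGTCA on either strand.
Acadl, chr1:66863310-66863559, minus strand: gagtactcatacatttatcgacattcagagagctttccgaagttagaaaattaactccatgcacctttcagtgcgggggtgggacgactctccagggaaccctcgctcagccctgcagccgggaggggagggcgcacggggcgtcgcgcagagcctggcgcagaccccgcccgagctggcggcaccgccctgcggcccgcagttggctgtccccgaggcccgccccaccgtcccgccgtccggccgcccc
Hadha and Hadhb, chr5:30155163-30155247, plus strand: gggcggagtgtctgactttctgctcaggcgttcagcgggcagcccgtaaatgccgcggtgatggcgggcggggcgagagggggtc
Acadm, chr3:153944644-153944893, minus strand: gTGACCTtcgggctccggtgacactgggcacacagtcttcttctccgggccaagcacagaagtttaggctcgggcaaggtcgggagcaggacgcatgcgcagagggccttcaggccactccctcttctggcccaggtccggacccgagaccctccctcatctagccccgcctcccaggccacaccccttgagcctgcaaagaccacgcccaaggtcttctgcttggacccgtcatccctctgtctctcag
Acadvl, chr11:70015429-70015678, minus strand: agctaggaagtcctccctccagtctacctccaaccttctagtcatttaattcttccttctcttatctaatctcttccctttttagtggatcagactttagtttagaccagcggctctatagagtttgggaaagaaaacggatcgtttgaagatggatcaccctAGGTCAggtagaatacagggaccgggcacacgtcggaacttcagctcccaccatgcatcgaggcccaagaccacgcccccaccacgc
PPARs are known to bind, with RXR, a direct repeat of the half-site AGGTCA spaced by 1 base. The repeat AGGTCANAGGTCA, on either strand and with up to 2 mismatches, was found in 0 of the 8 windows and in 3.24% of 32851 RefSeq windows of the same length. The half-site AGGTCA, which is contained in that repeat, was found on either strand in 2 of 8 (Acadm and Acadvl) and in 14.0% of all windows. Of the 2 with a half-site, Acadvl was called higher and Acadm was not. Of those with none in this window, Acadl, Hadha and Hadhb were called higher, and Acads, Hadh and Eci1 were not. A match is a description of letters, and elements outside these 250 bases were not searched.

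Among all measured genes, 2.51% were called higher and 1.91% lower. Around the spiral, 5 of 7 genes for carnitine-dependent entry and electron transfer were called higher and 0 lower (median log2 ratio 1.34). The exceptions were Slc22a5 and the electron transfer flavoprotein gene Etfa, which was named after its values were seen, at 0.69. The 7 ranged from 0.37 for the carnitine transporter gene Slc22a5 to 2.29 for the carnitine-acylcarnitine carrier gene Slc25a20, and Cpt1a, which controls entry into mitochondria, had 1.56 (1.48 to 1.64). Among 9 other genes of mitochondrial beta-oxidation, the median was 0.30, and 2 were called higher and 0 lower. The 2 were Eci2, another enoyl-CoA isomerase, at 2.22 (2.07 to 2.38) and Ech1, a dienoyl-CoA isomerase chosen after its values were seen, at 2.03 (1.93 to 2.13). The lowest was Acad9, a dehydrogenase also needed for assembly of respiratory complex I, at 0.10 (-0.10 to 0.30). Eci2 and Eci1, which share the isomerase reaction, thus had ratios of 4.67-fold and 1.39-fold.

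Of 4 acyl-CoA dehydrogenase genes of amino acid breakdown, 0 were called higher or lower, with a median of 0.01 and a range from -0.23 for Ivd, the isovaleryl-CoA dehydrogenase, to 0.25 for Acad8, the isobutyryl-CoA dehydrogenase. Of 4 genes that dispose of propionyl-CoA, the end product of odd chains, 0 were called. Their median was 0.23, from -0.12 for Pcca to 0.49 for Mcee. In both lists of 4, 0 called is near the shares of all measured genes (2.51% higher and 1.91% lower). Of 10 genes of peroxisomal beta-oxidation, which shortens chains too long for mitochondria, the median was 0.68, and 2 were called higher and 0 lower. They ran from -0.19 for the oxidase gene Acox3 to 1.65 for the thiolase gene Acaa1b, which rests on 9 and 20 counts and is a close relative of Acaa1a. The other one called was Ehhadh, the peroxisomal bifunctional enzyme, chosen after its values were seen, at 1.34 (2.53-fold, from 540 and 969 counts).

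**Figure D4:**
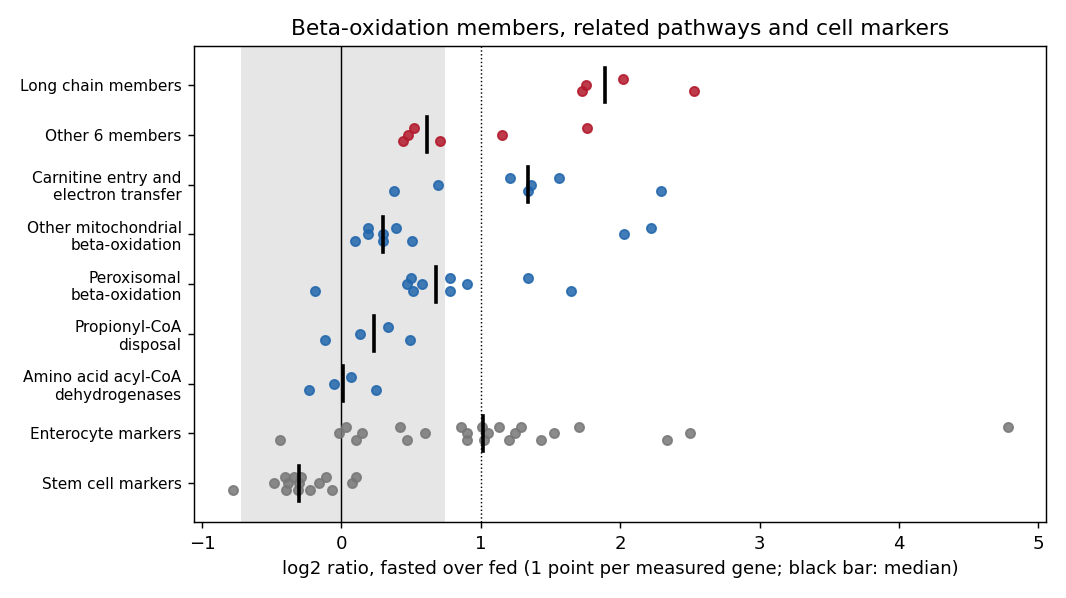
Points are log2 ratios of fasted over fed for single measured genes, black bars are medians, the grey band spans the 5th to the 95th percentile of all measured genes and the dotted line marks 2-fold. The long-chain members (median 1.89) lie to the right of the amino acid dehydrogenases (0.01), and the median of the enterocyte markers is 1.02.

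Of 24 markers of absorptive enterocytes, 13 were called higher in the fasted library and 0 lower, with a median log2 ratio of 1.02. The other 11 ranged up to 0.90 and down to -0.44, for the maltase gene Mgam (5627 and 2942 counts, named after its values were seen). Their summed level went from 19348 normalised counts in the fed to 30178 in the fasted library, and none was at 0. The brush border enzyme genes Alpi and Sis had 1.03 and 1.29, Fabp2, a fatty acid binding protein, had 1.71 (1.60 to 1.82), and Vil1, which is also expressed in crypts, had -0.01 (-0.08 to 0.06). Of 15 stem cell markers 0 were called higher or lower, 13 were negative and the median was -0.30. Lgr5 was at -0.49 (-0.57 to -0.40) and Olfm4 at -0.78 (-0.79 to -0.76). The summed level of the 15 went from 135576 (fed) to 91607 (fasted) normalised counts, of which Olfm4 had 84489 and 49258. Goblet cell markers had 3 of 8 higher and 0 lower (summed 3742 and 7422 normalised counts), and Paneth cell markers 1 of 9 higher and 0 lower (6703 and 5984). Enteroendocrine markers had 0 of 6 measured genes called (summed 184 and 189), and tuft cell markers 0 of 3 (73.2 and 55.9). Among all measured genes, 2.51% were called higher and 1.91% lower. The 0 called in the stem cell, enteroendocrine and tuft cell lists is near those shares. Immune markers left 1 measured gene, which was lower, and summed to 35 and 10 raw counts, and markers of stroma and endothelium left none and summed to 14 and 5. Of these last 2 lists, 4 of 9 genes each were at 0 in both libraries. The part of a shift in cell makeup in the ratios of the 10 genes was not tested.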

How the data were processed

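The authors deposited raw read counts per Ensembl gene for each library. A second deposited table holds a signal per gene, which equals the counts divided by 1 size factor per library (100% of values matched within 0.0051, and 100% gave whole reads within 0.05). FastQC, STAR, HTSeq and DESeq and the builds GRCm38 and mm10 are named, without roles, per the submitters' processing notes. For the annotation, the strand setting and the treatment of reads with several matches, nothing is given in the sources used here.

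Gene IDs were matched to GENCODE M21 (GRCm38) for symbols, coordinates and exon lengths (45143 of 45706 matched). Size factors are medians of ratios, and intervals are exact Clopper-Pearson intervals of the fasted share of a gene's reads, or exact conditional odds ratio intervals for pairs (scipy 1.17.1). Exon overlaps came from bedtools 2.31.1 and copies from blastn 2.17.0. The steps were run on simulated counts that held counting error only, which cannot show how they perform under variation between mice. Alternatives were TMM (edgeR 4.0.16), library totals, upper quartiles, the deposited normalised table, a running median over 501 genes ordered by exon length, other filters, folds and class memberships. With 1 library per group no test was run.

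The 10 genes, their classes and the lists were chosen with earlier results of these data known. Named genes are the 10, the highest and lowest measured gene of each pathway list, Cpt1a, Echs1, Lgr5, Olfm4, Alpi, Sis, Fabp2 and Vil1. Acaa1a is named only as a relative of Acaa1b. Other genes named beyond that list are said to have been chosen after their values were seen. The exceptions are the overlapping gene and the copy found by the searches above.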

Additional observations from a re-analysis of the deposited data

How the results depend on the processing

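Under TMM factors, library totals, upper quartiles, the deposited normalised table and the correction for exon length, the same 6 genes were called higher, and all 50 values of single members kept their sign (48 of them within their counting interval). With the size factors, raising the minimum to 5 counts per 1000000 or removing it left 6 higher and 0 lower. Asking for an interval bound of 2-fold did too, while 1.5-fold gave 7 and 3-fold gave 5. These rules were not run under the other scalings. The lower log2 bound of Decr1 was 1.006, and library totals shift every log2 ratio by -0.021. The class results depended more on which genes were placed where. The medium-chain median of 1.14 became 1.44 with summed counts, and 0.52 with Hadh added to it or with Acaa2 left out, a fall of more than 1.5 times that follows from Acadm and Acaa2 lying far apart. The short-chain median of 0.57 became 0.71 once Hadh was moved. The long-chain margin of 1.28 became 1.14 without Acadl or without Hadhb, 1.52 without Hadha and Hadhb, and 1.41 without Acadvl. Leaving out Hadhb, Acadvl or Acaa2 was chosen after seeing the data, as was the principal transcript length. Depth limits little for these genes, the least covered being Hadhb with 196 and 564 counts, and the missing replicates limit each comparison. No paired analysis was possible because each group has 1 library.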
